A study of Homo sapiens with 24 samples.

Results

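snoRNA host genes are transcribed loci whose introns hold small nucleolar RNAs (snoRNAs). The 10 described here are the long noncoding hosts SNHG1, SNHG5, SNHG6, SNHG7, SNHG8, SNHG12, SNHG15, SNHG16, SNHG17 and GAS5, of 25277 gene symbols in the deposited table. They were chosen by symbol, and the list was put together with earlier results of these same values in view, so their fold changes and adjusted p-values are given as a description and not as independent evidence. Each symbol stands on 1 line of the table, all 10 passed the filter on low values, and none was left out.

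When such a locus is transcribed, the exons are spliced together into a long RNA, while the snoRNA is trimmed out of the excised intron and joins a protein complex that guides methylation or pseudouridylation of ribosomal RNA. Many of the spliced host RNAs carry a 5′ terminal oligopyrimidine start (5′TOP), as messenger RNAs of ribosomal proteins do, and are known substrates of nonsense-mediated decay (NMD), so that a host RNA and its snoRNA can differ widely in level. In prostate cancer cells GAS5 is best known as a growth-arrest transcript, and several SNHG RNAs have been studied as growth-promoting RNAs in cultured tumour cells.

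The study gave siRNA against POM121, a protein of the nuclear pore's membrane ring, to 2 human prostate cancer sublines. DU145DR and 22Rv1DR derive from DU145 and 22Rv1, are called aggressive sublines in the labels, and are used as models of docetaxel resistance. Within each subline the groups are siPOM121 construct 1 (si1), siPOM121 construct 2 (si2) and a control of which the labels say no more than Control. Each of the 6 groups holds 2 poly(A) RNA-seq libraries, coded 1B and 2B, 1C and 2C, 1A and 2A in DU145DR and 4B and 5B, 4C and 5C, 4A and 5A in 22Rv1DR, in the same order of groups. The 12 libraries were each read on 2 lanes, which makes 24 samples. Whether the 2 libraries of a group come from separate cultures is not stated, so the spread behind the p-values may be technical.

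Values are FPKM, fragments scaled by transcript length and library size, and their log2; values at or under 1 FPKM are listed at 0 on the log2 scale. Depth is unknown; 11884 to 12126 symbols per sample were above that floor in DU145DR and 12361 to 12569 in 22Rv1DR. POM121 itself had 12.5 to 13.5 FPKM in the siPOM121 libraries of DU145DR, against 21.3 to 21.6 FPKM in its controls, and 6.73 to 7.81 FPKM in those of 22Rv1DR, against 37.8 to 38.5 FPKM in its controls. The log2 fold changes were -0.71 ± 0.05 in DU145DR and -2.37 ± 0.05 in 22Rv1DR (SE; limma adjusted p = 5.66e-05 and 9.48e-09). The epithelial keratins KRT8 and KRT18 and EPCAM were above the floor in all samples, whereas KLK2, KLK3, HOXB13, FOLH1 and CDH1 were listed at 0 in every DU145DR sample. In 22Rv1DR HOXB13 had 34.0 to 38.7 FPKM and FOLH1 9.04 to 11.3 FPKM. Of 8 markers of blood, endothelial and stromal cells, 7 were listed at 0 in all samples, and LUM had 42.6 to 55.3 FPKM in 22Rv1DR only. Lanes 1 and 2 held the DU145DR libraries and 4A, and lanes 3 and 4 held the other 5 of 22Rv1DR.

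The starts of the host genes are shown because many host RNAs are known for a 5′TOP, a C and T run that begins at the first base. RefSeq promoters (GRCh38.p14) were matched by symbol for 8 of the 10 genes. Each window runs from 30 bases before the start to 30 bases from it, with the longest run of C and T letters within 5 bases of the start in capitals. SNHG6 and SNHG15 had no entry. Of the 8, those called lower in DU145DR are SNHG1 at chr11:62855856-62855915, SNHG7 at chr9:136728155-136728214, SNHG12 at chr1:28581844-28581903 and SNHG17 at chr20:38435299-38435358, all on the minus strand. Of the 8, those not called there are SNHG5 at chr6:85678704-85678763 and GAS5 at chr1:173869016-173869075 on the minus strand, and SNHG8 at chr4:118278732-118278791 and SNHG16 at chr17:76557734-76557793 on the plus strand.
SNHG1: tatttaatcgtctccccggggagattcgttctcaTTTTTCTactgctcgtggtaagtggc
SNHG7: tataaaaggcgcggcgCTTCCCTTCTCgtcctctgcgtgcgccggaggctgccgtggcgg
SNHG12: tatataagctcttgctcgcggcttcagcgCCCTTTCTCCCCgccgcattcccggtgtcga
SNHG17: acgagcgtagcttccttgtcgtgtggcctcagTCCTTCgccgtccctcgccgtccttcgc
SNHG5: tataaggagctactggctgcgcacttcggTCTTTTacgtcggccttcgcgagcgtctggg
SNHG8: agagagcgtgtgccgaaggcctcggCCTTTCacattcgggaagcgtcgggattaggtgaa
SNHG16: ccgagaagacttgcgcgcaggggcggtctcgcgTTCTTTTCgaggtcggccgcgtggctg
GAS5: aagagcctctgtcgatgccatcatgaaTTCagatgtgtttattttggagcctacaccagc

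A run of at least 5 C or T letters lay within 5 bases of the start in 7 of the 8 genes, against 35.7% of all 35116 RefSeq promoters searched the same way on the gene's own strand. GAS5 had a run of 3 that ends just before the start RefSeq gives. The search takes runs near the start, so it does not count 5′TOP starts. The marked run covers the start in SNHG5, SNHG8 and SNHG12. It ends before the start in SNHG7 and begins after it in SNHG1, SNHG16 and SNHG17. Over the 300 bases from 250 before to 50 after the start, the letters TATAA occurred on either strand in 5 of the 8, against 20.4% of all promoters. The letters CACGTG, read the same on both strands, occurred in SNHG7 alone of the 8, against 7.26%. The runs did not part the genes that were called from those that were not, since SNHG5, SNHG8 and SNHG16 also had runs of 6, 6 and 8 letters.

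In DU145DR 5 of the 10 host genes were lower after siPOM121, with log2 fold changes of -0.46 to -0.74, and none was higher. SNHG17, SNHG12, SNHG15, SNHG1 and SNHG7 passed the test and SNHG5, SNHG6, SNHG8, SNHG16 and GAS5 did not. Over all 13622 symbols tested, 9.37% were called lower and 14.5% higher. The median log2 fold change was -0.41 over the 10 genes and 0.00 over all symbols.

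SNHG17, which hosts the SNORA71 snoRNAs, had 12.7 and 13.8 FPKM with si1 and 12.4 and 13.7 FPKM with si2, against 23.1 and 20.8 FPKM in the DU145DR controls. All 4 siPOM121 libraries lay below both controls, and the log2 fold change was -0.74 ± 0.06 (SE, limma adjusted p = 0.000111). SNHG12, host of SNORA16A, SNORA44, SNORA61 and SNORD99, had 18.1 and 18.6 FPKM with si1 and 17.7 and 17.2 FPKM with si2, against 26.7 and 28.3 FPKM in controls. All 4 siPOM121 libraries lay below both controls, and the log2 fold change was -0.62 ± 0.10 (limma adjusted p = 0.00197). SNHG15, which hosts SNORA9, had 41.6 and 40.9 FPKM with si1 and 45.5 and 43.2 FPKM with si2, against 64.5 and 61.7 FPKM in controls. The groups did not overlap, and the log2 fold change was -0.56 ± 0.04 (limma adjusted p = 6.62e-05).

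SNHG1, host of SNORD22 and SNORD25 to SNORD31, had 54.2 and 54.1 FPKM with si1 and 55.5 and 53.5 FPKM with si2, against 75.7 and 77.5 FPKM in the DU145DR controls. Its 4 siPOM121 libraries were nearly level, and the log2 fold change was -0.50 ± 0.06 (limma adjusted p = 0.000439). SNHG7, host of SNORA17 and SNORA43, had 54.1 and 57.2 FPKM with si1 and 58.9 and 54.9 FPKM with si2, against 74.8 and 79.8 FPKM in controls. No siPOM121 library reached a control, and the log2 fold change was -0.46 ± 0.06 (limma adjusted p = 0.000981). In the GENCODE 29 annotation 25.2% of the exon bases of SNHG7 overlap FAM69B on the opposite strand, and the library type does not keep the strand. FAM69B had 21.6 to 25.3 FPKM over all 12 libraries, and its part in the SNHG7 values was not tested.

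The other 5 hosts did not pass in DU145DR. SNHG6, host of SNORD87 and the most abundant of the 10 in this subline, had 623 and 670 FPKM with si1 and 697 and 705 FPKM with si2, against 606 and 675 FPKM in controls. The groups overlapped (log2 fold change 0.07 ± 0.07, limma adjusted p = 0.496). SNHG5, host of SNORD50A and SNORD50B, had 221 and 247 FPKM with si1 and 225 and 247 FPKM with si2, against 244 and 248 FPKM in controls, again overlapping (-0.07 ± 0.09). SNHG16, host of the SNORD1 snoRNAs, overlapped as well, at 42.4 to 54.0 FPKM with siPOM121 and 45.1 to 53.2 FPKM in controls (-0.04 ± 0.09). In the annotation 30.6% of its exon bases overlap AC015802.6 on the opposite strand, whose part in the values was not tested. SNHG8, host of SNORA24, had 31.2 and 50.8 FPKM with si1 and 60.9 and 54.0 FPKM with si2, against 49.5 and 54.0 FPKM in controls (-0.11 ± 0.16). Library 1B stood below the other 5 for SNHG8.

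GAS5, the growth arrest-specific host of many box C/D snoRNAs, had 58.8 and 55.5 FPKM with si1 and 58.3 and 60.5 FPKM with si2, against 69.8 and 80.4 FPKM in the DU145DR controls. All 4 siPOM121 libraries were below both controls, but GAS5 did not pass (log2 fold change -0.36 ± 0.34, limma adjusted p = 0.522). The SE comes from all 12 libraries, and that of GAS5 holds a wide gap between the 22Rv1DR libraries 4C and 5C. Leaving out 4C or 5C changed the spread used for all symbols and left the log2 fold change of GAS5 in DU145DR at -0.36. GAS5 then passed as lower, so its result in the test turned on whether both libraries were kept. Those fits leave 1 library in the si2 group of 22Rv1DR, and no call is taken from them. Counting GAS5, 6 of the 10 genes had all 4 siPOM121 libraries below both DU145DR controls, as had 22.0% of all symbols, and none had them all above, as had 27.2%.

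**Figure D1:**
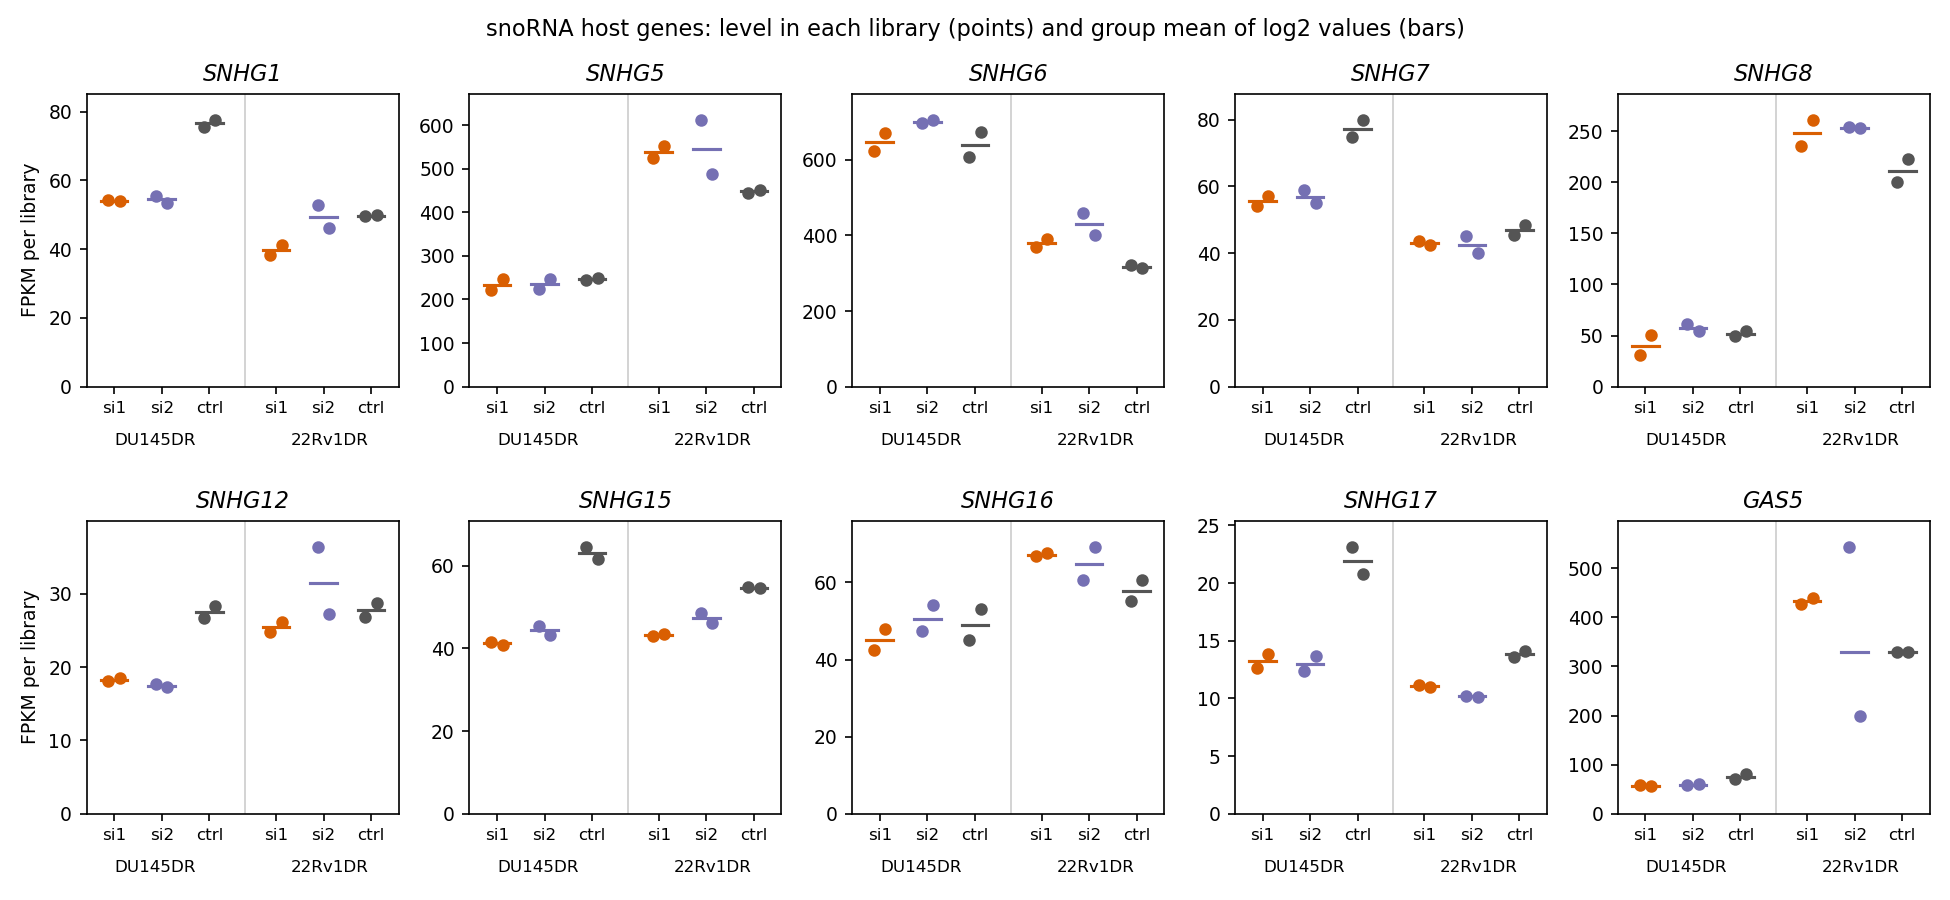
FPKM of the 10 snoRNA host genes in each of the 12 libraries (points, linear axes from 0), with si1, si2 and control (ctrl) from left to right in DU145DR and then 22Rv1DR; bars are group means of the log2 values. In DU145DR the points of SNHG1, SNHG7, SNHG12, SNHG15 and SNHG17 lie below both controls with either construct, and in 22Rv1DR the 2 si2 points of GAS5 lie at 543 and 200 FPKM.

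Both constructs gave the DU145DR pattern. With si1 the log2 fold changes of the 5 called genes were -0.50 for SNHG1, -0.47 for SNHG7, -0.59 for SNHG12, -0.61 for SNHG15 and -0.73 for SNHG17. With si2 they were -0.49, -0.44, -0.65, -0.51 and -0.75 in that order of genes. The constructs share their controls, so these are not independent of each other. In the direct comparison of si2 with si1, which uses no control, no host gene was called, and 0.0220% of all symbols were. The difference was between -0.07 and 0.53 on the log2 scale over the 10 genes. The 0.53 ± 0.19 was that of SNHG8, and the 5 lower genes differed by 0.10 or less between constructs, with SE of 0.05 to 0.11.

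In 22Rv1DR, calls fell in both directions. SNHG17, SNHG15 and SNHG1 were lower and SNHG6 and SNHG5 were higher, all by less than 0.4 on the log2 scale. Over all symbols tested, 20.4% were called lower and 15.2% higher, shares near those of the 10 genes. Of all calls in this subline 42.7% were higher, and 53.0% when each library was centred on its median. The median log2 fold change was 0.11 over the 10 genes and -0.02 over all symbols.

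SNHG17 had 11.2 and 11.0 FPKM with si1 and 10.2 and 10.1 FPKM with si2, against 13.6 and 14.1 FPKM in the 22Rv1DR controls. The siPOM121 libraries lay below both controls, with a log2 fold change of -0.38 ± 0.06 (limma adjusted p = 0.00165). SNHG15 had 43.0 and 43.5 FPKM with si1 and 48.7 and 46.1 FPKM with si2, against 54.9 and 54.6 FPKM in controls (-0.27 ± 0.04, limma adjusted p = 0.000994). It too was below both controls in every siPOM121 library. SNHG1 had 38.2 and 41.1 FPKM with si1 and 52.8 and 46.3 FPKM with si2, against 49.6 and 49.8 FPKM in controls (-0.17 ± 0.06, limma adjusted p = 0.0402). The groups of SNHG1 overlapped, since library 4C stood above both controls.

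SNHG6 had 369 and 391 FPKM with si1 and 460 and 401 FPKM with si2, against 322 and 313 FPKM in the 22Rv1DR controls. All siPOM121 libraries were above both controls, with a log2 fold change of 0.35 ± 0.07 (limma adjusted p = 0.00389). In the annotation 29.3% of the exon bases of SNHG6 overlap MCMDC2 on the opposite strand, a gene listed at 0 in all 12 libraries. SNHG5 had 524 and 552 FPKM with si1 and 611 and 488 FPKM with si2, against 445 and 451 FPKM in controls (0.27 ± 0.09, limma adjusted p = 0.0326). SNHG5 was the most abundant of the 10 in this subline, and its siPOM121 libraries were all above both controls.

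SNHG8 also lay above both controls throughout, at 235 to 261 FPKM with siPOM121 and 200 to 223 FPKM in controls, but did not pass (0.25 ± 0.16, limma adjusted p = 0.274). SNHG7 lay below both controls throughout, at 39.9 to 45.2 FPKM with siPOM121 and 45.5 to 48.4 FPKM in controls, and did not pass (-0.13 ± 0.06, limma adjusted p = 0.122). SNHG16 and SNHG12 overlapped with their controls, with log2 fold changes of 0.19 ± 0.09 and 0.03 ± 0.10. In all, 3 genes had every siPOM121 library above both controls, as had 18.0% of all symbols, and 3 had every one below, as had 27.3%.

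The 22Rv1DR calls differed in how firmly they stood. SNHG15 and SNHG17 were called under all 24 alternatives tried and SNHG6 under 23. SNHG5 was called under 16 and SNHG1 under 9. Among the 5 libraries of this subline that shared lanes 3 and 4, that is without 4A, the log2 fold changes were -0.41 for SNHG17, -0.27 for SNHG15, 0.37 for SNHG6, -0.17 for SNHG1 and 0.27 for SNHG5. SNHG1 (limma adjusted p = 0.149) and SNHG5 (0.151) were then not called; without 5A, the other control, adjusted p was 0.173 for SNHG1 and 0.139 for SNHG5. SNHG1 also lost its call with quantile normalization (0.170) and with median centring (0.183).

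GAS5 in 22Rv1DR had 427 and 439 FPKM with si1 and 543 and 200 FPKM with si2, against 329 and 329 FPKM in controls. The si2 libraries 4C and 5C thus stood on opposite sides of the controls, with a log2 difference of -1.44 (5C minus 4C). Only 37 of the 13622 symbols differed that far or further in that direction, GAS5 included. The log2 fold change over both constructs was 0.20 ± 0.34 (limma adjusted p = 0.728). It was 0.56 without 5C and -0.16 without 4C, so the direction over both constructs rests on which si2 library is kept. With si1 alone it was 0.40 ± 0.39 against controls (limma adjusted p = 0.523), and the 0.40 stayed the same without 4C or without 5C. In those fits the si1 difference of GAS5 passed, as its DU145DR difference did.

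Library 5C was lower than 4C in 9 of the 10 host genes, with a median log2 difference of -0.19, against 29.3% of all symbols and a median of 0.08. In SNHG8 and SNHG17 that difference was 0.01 or less. Ribosomal protein genes, whose messenger RNAs carry a 5′TOP start, were lower in 5C in 74 of 82 tested, with a median of -0.44. Their share of the summed FPKM was 18.3% in 4C and 12.1% in 5C, and 14.8% to 16.9% in the other 4 libraries of 22Rv1DR. In DU145DR it was 8.62% to 9.32%. The part of this difference between 4C and 5C in the host gene values was not tested. The summed FPKM of the 10 genes was 1784 and 1874 with si1 and 2122 and 1580 with si2, against 1542 and 1573 in the 22Rv1DR controls. In DU145DR it was 1158 and 1255 with si1 and 1280 and 1303 with si2, against 1280 and 1380 in controls.

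**Figure D2:**
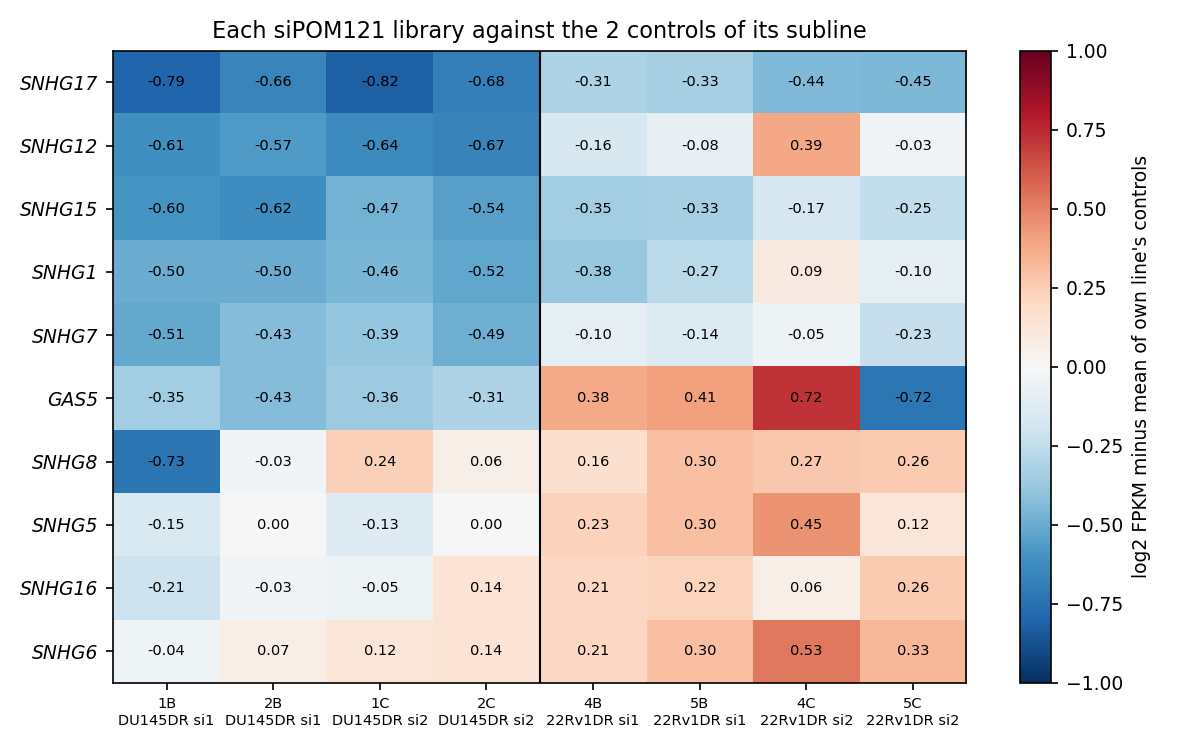
Log2 FPKM of each siPOM121 library minus the mean of the 2 controls of its own subline (colour and printed values; blue is lower, red higher), with genes ordered by their mean deviation in DU145DR. SNHG17 runs from -0.66 to -0.82 in the 4 DU145DR libraries, and GAS5 stands at 0.72 in 4C and -0.72 in 5C.

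With the direct comparison of constructs in 22Rv1DR, SNHG1 alone was called, higher with si2 than with si1 by 0.32 ± 0.06 (limma adjusted p = 0.0164), and 11.6% of all symbols were called. SNHG1 had a log2 fold change of -0.33 with si1 (limma adjusted p = 0.00521) and -0.01 with si2 (limma adjusted p = 0.992) against the shared controls. Without 5C, 5 of the 10 genes were higher with si2 than with si1, with 14.6% of all symbols higher. Without 4B or without 5B none was, with 1.21% and 1.94% of all symbols higher. The median difference between the 2 lanes of a library was 0.02 to 0.12 on the log2 scale over the 10 genes. For SNHG8 the lanes lay further apart in the DU145DR controls, by 0.50 in 1A and 0.59 in 2A.

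The test of the difference between sublines, the 22Rv1DR effect minus the DU145DR effect, called 5 genes. The difference was 0.65 ± 0.14 for SNHG12 (limma adjusted p = 0.00968), 0.36 ± 0.09 for SNHG17 (0.0181), 0.33 ± 0.08 for SNHG1 (0.0163), 0.33 ± 0.09 for SNHG7 (0.0241) and 0.29 ± 0.06 for SNHG15 (0.00735). A positive difference means that the 22Rv1DR fold change was the less negative, or for SNHG12 above 0. None was called in the other direction, against 15.9% of all symbols lower and 8.93% higher. SNHG5 (0.34 ± 0.12, limma adjusted p = 0.0670) and SNHG6 (0.27 ± 0.09, 0.0625) had differences of the same sign that did not pass. The count was 2 without 2A, without 4A, without 5A or with the lower-numbered lanes alone, where 4.34%, 6.39%, 4.68% and 5.98% of all symbols were higher. It was 8 without 5C, where 14.4% were. For POM121 the difference was -1.66 ± 0.07.

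**Figure D3:**
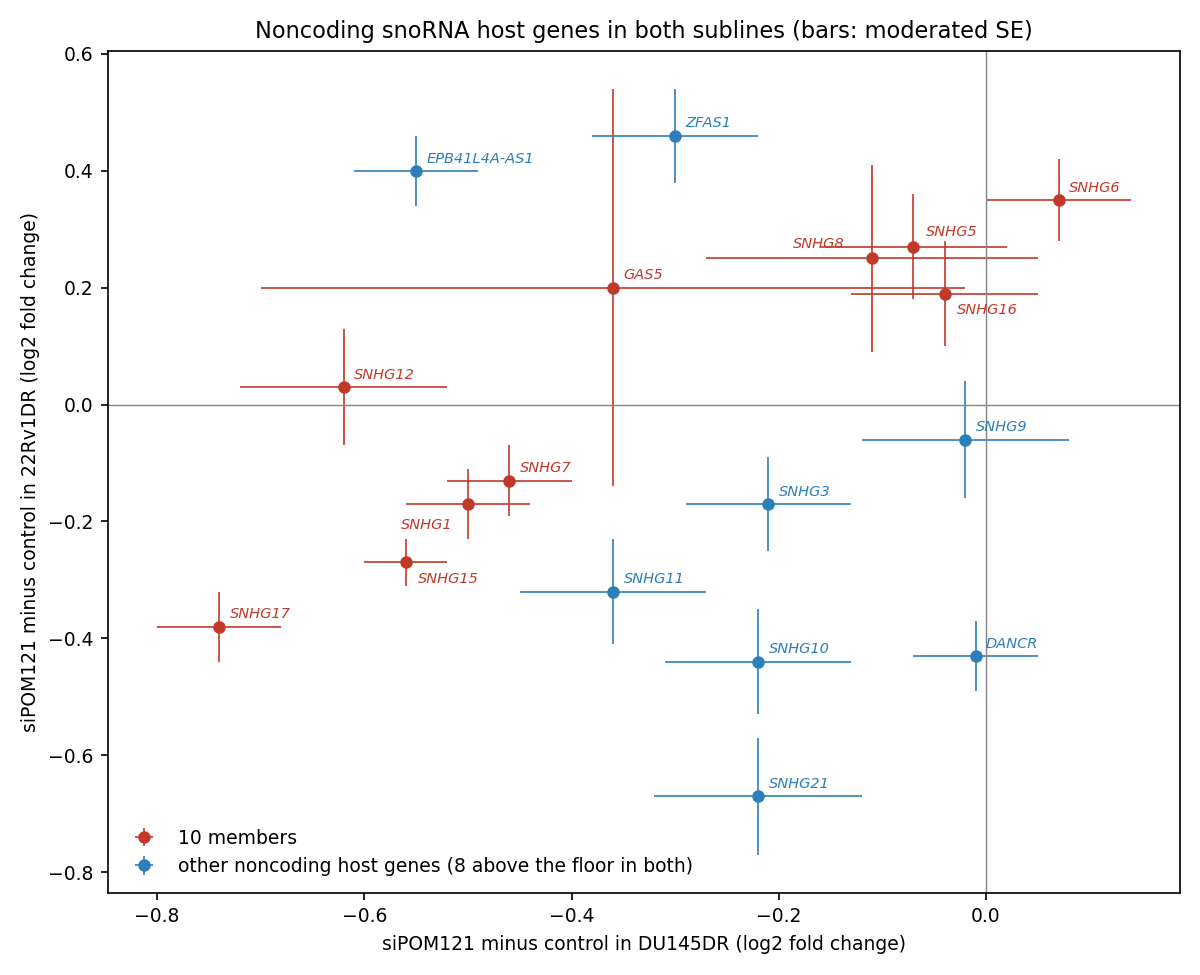
Log2 fold change after siPOM121 in DU145DR (horizontal) and 22Rv1DR (vertical) for the 10 host genes (red) and 8 other noncoding host genes (blue), with bars of 1 moderated SE; SNHG20, listed at 0 in DU145DR, is not drawn. SNHG17, SNHG15, SNHG1 and SNHG7 lie at the lower left, SNHG6 at the upper right, and EPB41L4A-AS1 and ZFAS1 at the upper left.

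The control levels of the 2 sublines also differed. Since FPKM is per length, levels can be set in order within a group. In the 22Rv1DR controls the order of group FPKM was SNHG5 (448), GAS5 (329), SNHG6 (318), SNHG8 (211), SNHG16 (57.9), SNHG15 (54.7), SNHG1 (49.7), SNHG7 (46.9), SNHG12 (27.8) and SNHG17 (13.9). In the DU145DR controls it was SNHG6 (640), SNHG5 (246), SNHG7 (77.3), SNHG1 (76.6), GAS5 (74.9), SNHG15 (63.0), SNHG8 (51.7), SNHG16 (49.0), SNHG12 (27.5) and SNHG17 (21.9). In DU145DR the library values of SNHG7, SNHG1 and GAS5 overlapped, as did those of SNHG8 and SNHG16. In 22Rv1DR no neighbours in the order overlapped.

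Of the 10 genes, 3 were higher in 22Rv1DR controls than in DU145DR controls and 5 were lower, against 40.3% higher and 42.7% lower of all symbols. GAS5 was higher by 2.13 ± 0.39 on the log2 scale (limma adjusted p = 0.00137), SNHG8 by 2.03 ± 0.19 (5.01e-06) and SNHG5 by 0.87 ± 0.10 (1.86e-05). SNHG6 was lower by a log2 difference of -1.01 ± 0.08 (8.33e-07), SNHG7 by -0.72 ± 0.07 (5.86e-06), SNHG17 by -0.66 ± 0.07 (1.24e-05), SNHG1 by -0.62 ± 0.06 (8.18e-06) and SNHG15 by -0.20 ± 0.05 (0.00224). With each library centred on its median, under which the median of all symbols in this comparison was 0.15, against -0.02 as deposited, SNHG15 was at -0.03 and not called. SNHG12 did not pass (0.02 ± 0.11), nor did SNHG16 (0.24 ± 0.11), which passed with median centring. Subline and lanes cannot be told apart here except through 4A, and in bulk RNA fewer cells of a kind cannot be told apart from less RNA per cell.

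Across the 12 libraries, with each subline centred on its own mean, the 5 genes that were lower in DU145DR varied together. Pearson's r between their log2 values was 0.67 to 0.93 in every pair of SNHG1, SNHG7, SNHG12, SNHG15 and SNHG17. SNHG5 and SNHG6 had r = 0.80 with each other, and SNHG6 and SNHG17 had r = -0.56. These are descriptions over 12 libraries that share the siPOM121 contrast and their scaling. The 5 genes were grouped by being lower in DU145DR in these same libraries, so a high r between them follows in part from that choice. Among 8698 symbols with a mean of at least 5 FPKM, those most like the mean of the 10 genes were TOMM5 and CHORDC1 (r = 0.95 each), then RNF14, UAP1 and AKAP12 (0.93 each). That mean does not stand for every host gene. The r of a gene with the mean of the other members ran from 0.06 for SNHG6 to 0.86 for SNHG12.

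As background, mature snoRNAs are short and have no poly(A) tail, and these are poly(A) libraries. Of 36 snoRNAs listed for the 10 hosts, 26 were at 0 in all 24 samples, among them every listed snoRNA of GAS5, SNHG5, SNHG6, SNHG7 and SNHG16. SNORD22 of SNHG1, SNORA61 of SNHG12 and SNORA9 of SNHG15 were above the floor in all 24 samples. In the annotation each of these 3 lies within an exon of some transcript of its host, so reads from the host RNA may be counted in its value. SNORD50B of SNHG5 and SNORD87 of SNHG6 also lie within an exon and were at 0 throughout. Exon position thus did not part the snoRNAs above the floor from those at 0. SNORA24, SNORA16A, SNORA44, SNORA71A, SNORA71B, SNORA71C and SNORA71D were above it in 18, 22, 19, 17, 16, 13 and 2 samples. SNORA61 had 248 and 257 FPKM with si1 and 245 and 106 FPKM with si2, against 527 and 372 FPKM in the DU145DR controls (-1.13 ± 0.33 on the log2 scale, limma adjusted p = 0.0476). SNORA9 had 47.6 and 103 FPKM with si1 and 71.9 and 161 FPKM with si2, against 208 and 180 FPKM in controls (-1.16 ± 0.40, limma adjusted p = 0.0831). SNORD22 had 123 and 145 FPKM with si1 and 161 and 283 FPKM with si2, against 462 and 204 FPKM in controls (-0.86 ± 0.40, limma adjusted p = 0.178). The median difference between the 2 lanes of a library was 0.94 for SNORA61, 0.38 for SNORA9 and 0.59 for SNORD22 on the log2 scale, above that of every host gene.

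Of the 36 listed snoRNAs only 9 passed the filter and were tested. In 22Rv1DR none of these was called, against 20.4% of all symbols lower and 15.2% higher. SNORA61 had 205 and 158 FPKM with si1 and 157 and 195 FPKM with si2, against 136 and 106 FPKM in controls (0.57 ± 0.33). SNORA9 had 126 and 131 FPKM with si1 and 219 and 163 FPKM with si2, against 265 and 215 FPKM in controls (-0.62 ± 0.40). SNORD22 had 81.3 and 106 FPKM with si1 and 179 and 115 FPKM with si2, against 188 and 269 FPKM in controls (-0.96 ± 0.40, limma adjusted p = 0.109). SNORA9 and SNORD22 averaged below their controls in both sublines without passing in either.

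Among 15 other noncoding host genes, 9 were tested; 0 were higher and 3 lower in DU145DR, and 2 higher and 5 lower in 22Rv1DR. Their median log2 fold changes were -0.22 in DU145DR and -0.32 in 22Rv1DR. Of all symbols, 14.5% were higher and 9.37% lower in DU145DR, and 15.2% and 20.4% in 22Rv1DR. EPB41L4A-AS1, which hosts SNORA13, had 10.2 and 10.5 FPKM with si1 and 10.1 and 11.5 FPKM with si2, against 15.6 and 15.3 FPKM in the DU145DR controls. In 22Rv1DR it had 25.7 and 26.4 FPKM with si1 and 28.7 and 25.5 FPKM with si2, against 20.0 and 20.4 FPKM in controls. It was thus lower in DU145DR (-0.55 ± 0.06, limma adjusted p = 0.000499) and higher in 22Rv1DR (0.40 ± 0.06, 0.00164), and no libraries overlapped in either. ZFAS1, host of the SNORD12 snoRNAs, did the same and was picked out after its values were seen, at -0.30 ± 0.08 in DU145DR (limma adjusted p = 0.0329) and 0.46 ± 0.08 in 22Rv1DR (0.00328). Of all symbols, 92 or 0.675% were called lower in DU145DR and higher in 22Rv1DR.

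DANCR, host of SNORA26, had 52.9 to 61.3 FPKM with siPOM121, against 77.7 to 79.8 FPKM in the 22Rv1DR controls (-0.43 ± 0.06, limma adjusted p = 0.000720). In DU145DR DANCR did not pass (-0.01 ± 0.06). SNHG21 had 1.67 to 2.70 FPKM with siPOM121 and 3.15 to 3.49 FPKM in the 22Rv1DR controls (-0.67 ± 0.10, limma adjusted p = 0.00108). SNHG20 was listed at 0 in both si1 libraries of 22Rv1DR and had 2.87 and 5.66 FPKM with si2, against 5.13 and 5.65 FPKM in controls; it was at 0 in all DU145DR libraries.

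**Figure D4:**
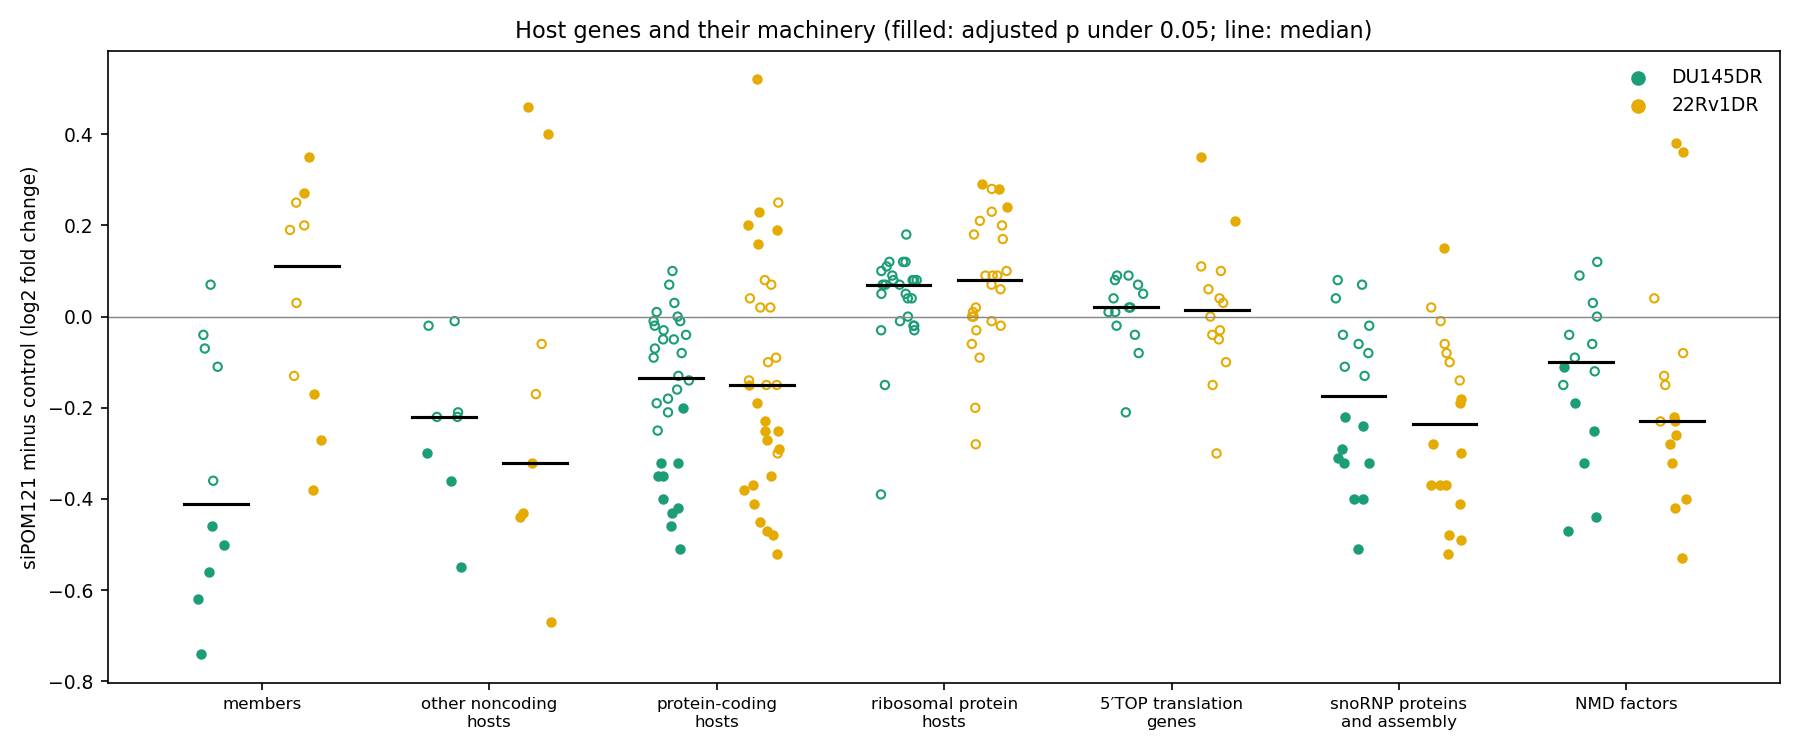
Log2 fold change after siPOM121 of the measured genes of 7 lists in DU145DR (green) and 22Rv1DR (yellow); filled points passed the limma test at an adjusted p of 0.05 over all symbols, and black lines are list medians. SNHG20 and UPF3A, listed at 0 in DU145DR, count in the medians but are not drawn. The members lie at a median of -0.41 in DU145DR and 0.11 in 22Rv1DR, and ribosomal protein hosts at 0.07 and 0.08.

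Host genes that also encode proteins were split by kind. Of 32 protein-coding hosts outside the ribosome, 0 were higher and 10 lower in DU145DR, and 5 higher and 15 lower in 22Rv1DR. The medians were -0.14 and -0.15. The shares of all symbols were 14.5% higher and 9.37% lower in DU145DR, and 15.2% and 20.4% in 22Rv1DR. NCL, the nucleolar protein nucleolin, was lower in DU145DR (-0.32 ± 0.04, limma adjusted p = 0.000667) and in 22Rv1DR (-0.41 ± 0.04, 0.000129). EP400, a chromatin remodeller, was lower in 22Rv1DR (-0.35 ± 0.04, 0.000260) and not called in DU145DR (-0.04 ± 0.04). TAF1D, a subunit of the factor that starts RNA polymerase I on ribosomal DNA, was picked out after its values were seen. It was lower in DU145DR (-0.42 ± 0.07, limma adjusted p = 0.00346) and higher in 22Rv1DR (0.23 ± 0.07, 0.0374). Of 26 ribosomal protein genes that host snoRNAs, none was called in DU145DR in either direction. In 22Rv1DR 3 were higher and 0 lower, among them RPL13A (0.29 ± 0.04) and RPL39 (0.28 ± 0.07). RPSA did not pass in 22Rv1DR (0.10 ± 0.04).

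Translation factors with a 5′TOP start, a feature known from many host RNAs, had 0 of 14 called in DU145DR. In 22Rv1DR 2 were higher and 0 lower. Those were EEF1A1, the factor that brings transfer RNA to the ribosome, at 0.35 ± 0.04 and the initiation factor subunit EIF3H at 0.21 ± 0.03. NPM1, a nucleolar chaperone (-0.21 ± 0.08 in DU145DR, limma adjusted p = 0.0863), and EEF1G (0.10 ± 0.04 in 22Rv1DR, 0.0676) did not pass. The proteins that bind and assemble snoRNAs were lower in 9 of 18 in DU145DR with 0 higher, and lower in 11 with 1 higher in 22Rv1DR. The medians of this list were -0.17 and -0.24. Of all symbols, 9.37% were lower and 14.5% higher in DU145DR, and 20.4% and 15.2% in 22Rv1DR. DKC1 and NOP56 count both in this list and among the protein-coding hosts.

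DKC1, the pseudouridine synthase of H/ACA snoRNA complexes and itself a snoRNA host, had group levels of 53.2 and 57.9 FPKM with si1 and si2, against 79.2 FPKM in the DU145DR controls. In 22Rv1DR it had 26.6 and 30.5 FPKM, against 39.7 FPKM in controls. NOP56, a core protein of box C/D complexes and also a host, was lower in DU145DR (-0.40 ± 0.06, limma adjusted p = 0.00141) and in 22Rv1DR (-0.52 ± 0.06, 0.000248). GAR1, another H/ACA protein, was lower by similar amounts (-0.40 ± 0.06 and -0.49 ± 0.06), and NOLC1, a chaperone of snoRNA complexes, was at -0.29 ± 0.04 and -0.37 ± 0.04.

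Of 16 factors of NMD and the decay that follows it, 0 were higher and 6 lower in DU145DR. In 22Rv1DR 2 were higher and 9 lower, and the medians were -0.10 and -0.23. The shares of all symbols were 14.5% higher and 9.37% lower in DU145DR, and 15.2% and 20.4% in 22Rv1DR. SMG9, a regulator of the NMD kinase, was lower in DU145DR (-0.32 ± 0.06, limma adjusted p = 0.00389) and in 22Rv1DR (-0.40 ± 0.06, 0.000994). CASC3, of the exon junction complex, was at -0.11 ± 0.03 and -0.22 ± 0.03. UPF3A, which binds that complex, had group levels of 4.32 and 3.88 FPKM with si1 and si2, against 5.25 FPKM in the 22Rv1DR controls (-0.36 ± 0.05), and was listed at 0 in DU145DR. XRN1, the exonuclease that degrades decapped RNA, was higher in 22Rv1DR (0.38 ± 0.06, limma adjusted p = 0.00149). Whether these levels bear on the host genes was not tested.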

How the data were processed

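The deposited table holds log2 FPKM values that the authors made, with TopHat, Cufflinks and the builds hg19 and mm10 named in the submitters' processing notes; versions are not given in the sources used here. In the deposited log2 values anything up to 1 FPKM stands at 0, which is 52.8% of them. Depth is unknown, so no counting interval is given. Log2 values were averaged over the 2 lanes of a library, and symbols with both lanes above the floor in at least 2 of 12 libraries were tested (13622). Tests used limma 3.58.1 in R 4.3.3 with 1 mean per group, trend and robust options, a spread shared by all 6 groups (6 residual degrees of freedom), 2-sided p-values and Benjamini-Hochberg adjustment over all symbols tested, with a threshold of 0.05. The siPOM121 effect is the mean of both constructs minus control. The test was checked on simulated data for DU145DR over 13622 symbols: 85 of 100 changes of 0.5 and 98 of 100 changes of 1 (log2) were recovered, with 6 false calls. Members and gene lists were chosen with earlier results of these data known. Named are all members, POM121, up to 4 genes of each other list with the smallest p, snoRNAs above the floor, and the 5 symbols most like the members' mean. Alternatives covered pseudocounts, filters, scaling, lanes, lines of repeated symbols, moderation, each subline alone, a replicate block and each library left out. The annotation (GENCODE 29) served only for overlaps.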

Additional observations from a re-analysis of the deposited data

Results flagged for a closer look

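For SNHG5 the highest of the 4 DU145DR control samples (2 lanes of 2 libraries) read 254 FPKM, against 242 to 244 FPKM in the other 3. For SNHG16 the highest of the 4 si1 samples of 22Rv1DR read 68.5 FPKM, against 66.6 to 66.8 FPKM in the other 3. Both were picked out because that sample stood apart from its group, and 60 groups of 4 samples were checked. The rule's chance rate of about 1 in 20 holds for 4 independent samples. Lanes of one library are not independent, so the rate here is unknown. The siPOM121 effect differed between sublines, by the test of the difference itself, for SNHG1 (0.33), SNHG7 (0.33), SNHG12 (0.65), SNHG15 (0.29), SNHG17 (0.36), EPB41L4A-AS1 (0.95), ZFAS1 (0.75), DANCR (-0.43) and SNHG21 (-0.45), each as the 22Rv1DR minus the DU145DR log2 fold change.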

How the results depend on the processing

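The 5 DU145DR calls held under all 24 alternatives. GAS5 and SNHG8 were also called lower in DU145DR in some fits with 1 library left out. In such fits the share of all symbols called changed too, so changes in the counts of host genes are not read as specific to them. The counts for 22Rv1DR were less stable. With each library left out in turn, the genes called higher there ranged from 1 to 4 (2 with all libraries, 4 without 5C) and those called lower from 2 to 5 (3 with all, 5 without 4C). The genes with a positive difference between sublines ranged from 2 to 8 (5 with all), and those with si2 above si1 in 22Rv1DR from 0 to 5 (1 with all) and below it from 0 to 1 (0 with all). With 22Rv1DR fitted alone 0 genes were higher after siPOM121, where 7.22% of all symbols were, against 15.2% in the main fit. Between constructs 0 differed upward, where 0.404% of all symbols did. With the lower-numbered lanes alone 1 gene was higher in 22Rv1DR, with 11.3% of all symbols, and 2 differed upward between sublines, with 5.98%. GAS5 in 22Rv1DR changed sign: siPOM121 gave -0.163 to 0.559, si2 minus control -0.722 to 0.722 and si2 minus si1 -1.117 to 0.326, at the ends set by leaving out 4C or 5C; the cause was not tested. An arm left with 1 library was assumed to vary like the other groups. Over all symbols tested, libraries of the same number did not vary together (correlation of deviations -0.10 to 0.13). That value does not speak to single genes, and SNHG16 was higher in the higher-numbered library of every group. With the replicate block, SNHG16 was called in 22Rv1DR (0.188, limma adjusted p = 0.0174) and between sublines (0.223, 0.0438), and SNHG1 in 22Rv1DR was not (0.0696). Under that setting 5 genes were lower in DU145DR, with 8.99% of all symbols. In 22Rv1DR 3 were higher and 2 lower, with 14.7% and 20.4% of all symbols. With 2 libraries a group and unknown depth, small differences may go undetected.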
